A study of Mus musculus with 4 samples.

Results

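The 7 receptor genes of the signalling lymphocytic activation molecule (SLAM) family and 2 genes for the small adaptors that bind their tails were described in activated mouse T cells. The 9 genes, Slamf1, Slamf6, Slamf7, Ly9, Cd84, Cd48, Cd244a, Sh2d1a and Sh2d1b1, were taken by name from the 50600 genes of the deposited count tables, and 9 of 9 were found. The RNA came from primary T cells of C57BL/6NJ mice, a laboratory strain with no engineered allele named in the labels. The file headers call the cells Th0 and activated, 16 h after activation; Th0 cells are T cells activated without cytokines that steer them to a subset. The labels call the cells T cells and link a differentiation protocol named for CD4+ T cells. Age and sex are not given. The 4 libraries are biological replicates 1 to 4 of a single group with 1 shared donor identifier, so no condition could be compared. Whether each came from a separate animal is not given. Xist, the RNA that coats the silenced X chromosome, was at 141 and 116 TPM in replicates 1 and 2 and at 0.269 and 0.303 TPM in replicates 3 and 4, so the 4 libraries were not repeats of 1 RNA sample.

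SLAM family receptors are cell surface proteins of the immunoglobulin superfamily. Most bind a copy of themselves on a neighbouring cell, whereas CD48 binds CD2 and CD244. Phosphorylated tyrosine motifs in the receptor tails dock SAP, the adaptor encoded by Sh2d1a, which brings in the kinase Fyn. In T cells the family is known for sustaining contact with B cells during help for antibody responses and for the development of natural killer T cells.

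The tyrosine motif that SAP and its relatives bind is shown first, because it links the receptors to the adaptors. The search ran in frame along the longest coding sequence of each gene in the GENCODE M21 transcripts (build GRCm38, also called mm10), on the coding strand only. It looked for a threonine codon, any codon, a tyrosine codon, any 2 codons, and a valine or isoleucine codon. Of 21581 coding genes, 7.94% held at least 1 such run and 0.607% held 2 or more. Slamf1, Slamf6, Ly9 and Cd84 each held 2, Slamf7 held 1 and Cd244a held 4. The run nearest the end of each coding sequence is printed 5′ to 3′ with the 6 codons in capitals and 6 bases on either side in lower case.
Slamf1: cccaccACAGTTTATGCCAGTGTGacactg
Slamf6: tccatgACAATTTACTCCATAGTTaatcat
Slamf7: ccaaacACATTTTATTCCACTGTGcagatc
Ly9: tcaaatACAATCTACTGCTCTGTGcagaag
Cd84: gtgaccACCATTTATTCCTCAGTGcagctt
Cd244a: agttgtACCGTGTACGAGGAGGTTggaaac

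These runs began at codon 333 of 343 in Slamf1, 317 of 351 in Slamf6, 300 of 335 in Slamf7, 623 of 654 in Ly9, 298 of 329 in Cd84 and 367 of 397 in Cd244a. Cd48 also held 1 run, at codons 105 to 110 of 240. CD48 is held in the membrane by a lipid anchor and has no cytoplasmic tail, so its run is a match of letters outside any tail. Sh2d1a and Sh2d1b1 held none. A match describes the sequence and does not show that a site is used.

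Levels are given in TPM (transcripts scaled to the same total in every library), computed from the deposited counts of read pairs and the exonic length of each gene. Libraries held between 46192242 and 63313389 read pairs assigned to genes. A gene was called detected where each of the 4 libraries reached 1 TPM. By that rule 7 of the 9 genes were detected, beside 22.1% of all genes and 45.2% of nuclear protein-coding genes. The 9 genes together took 0.0420% to 0.0435% of the read pairs. All 8 listed T cell markers were detected, with a summed level of 4887 to 5057 TPM, among them Cd4 at 749 ± 30.2 TPM (SD, n = 4). Of 4 CD8 T cell markers Cd8b1 alone was detected, at 53.3 to 61.1 TPM, while Cd8a lay between 0.225 and 1.06 TPM. In bulk RNA, a change in the share of cells that express a gene cannot be told apart from a change in RNA per cell.

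With all annotated exons as the length, the receptor genes lay in 3 tiers. Cd48 and Ly9 lay between 129 and 146 TPM, Slamf1, Slamf6 and Cd84 between 23.2 and 35.2 TPM, and Slamf7 between 8.33 and 10.2 TPM. Cd244a stood apart, under 1 TPM in every library. Sh2d1a, the gene for SAP, lay with the middle receptors by this length, and Sh2d1b1 had no count. The upper and middle tiers did not stay apart with the shortest coding transcript as the length, described further on.

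Cd48 (ENSMUSG00000015355.13, chromosome 1, 171682009 to 171705258, plus strand) encodes the ligand of CD2 and CD244. It had 136, 137, 145 and 146 TPM in replicates 1 to 4, a mean of 141 ± 5.10 TPM (SD, n = 4). Replicates 3 and 4 were the higher pair. By mean TPM, Cd48 ranked 1400 of 21751 nuclear protein-coding genes.

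Ly9 (ENSMUSG00000004707.14, chromosome 1, 171588624 to 171607410, minus strand) encodes SLAMF3, a receptor that binds itself. Its level was 132, 129, 135 and 139 TPM in replicates 1 to 4, a mean of 134 ± 4.23 TPM (SD, n = 4). Replicate 4 was the highest and replicate 2 the lowest, and the range overlapped that of Cd48. Ly9 ranked 1487 of the nuclear protein-coding genes. With all exons as the length, the median over detected nuclear protein-coding genes was a mean of 32.7 TPM. Of the 7 detected members, only 2, Cd48 and Ly9, lay above it.

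Cd48 and Ly9 together made up 73.8%, 74.9%, 75.2% and 75.1% of the summed TPM of the 7 receptor genes. That sum was 368 ± 10.4 TPM (SD, n = 4). With the longest coding transcript in place of all exons as the length, described further on, the share of these 2 genes was 64.0 ± 0.747% (SD, n = 4). With all exons as the length, the other 5 receptors shared the remainder, led by Slamf1 with 8.83 ± 0.374% (SD, n = 4). With the shortest coding transcript as the length, Slamf6 stood highest at 137 TPM, against 103 TPM for Ly9 and 88.9 TPM for Cd48. The lead of Cd48 and Ly9 therefore depended on the length used.

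Slamf1 (ENSMUSG00000015316.11, chromosome 1, 171767127 to 171801184, plus strand) encodes the founding receptor of the family, CD150, which binds itself. It had 32.7, 30.7, 31.4 and 35.2 TPM in replicates 1 to 4, a mean of 32.5 ± 1.98 TPM (SD, n = 4). Replicate 4 was the highest and replicate 2 the lowest.

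Slamf6 (ENSMUSG00000015314.10, chromosome 1, 171917515 to 171953170, plus strand) encodes Ly108, a self-binding receptor of T, B and natural killer cells. It had 27.2, 25.8, 25.6 and 23.2 TPM in replicates 1 to 4, a mean of 25.4 ± 1.64 TPM (SD, n = 4). Here replicate 4 was the lowest.

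Cd84 (ENSMUSG00000038147.13, chromosome 1, 171839697 to 171890718, plus strand) encodes SLAMF5, a self-binding receptor found on T cells, B cells and platelets. It had 25.2, 24.0, 25.1 and 26.9 TPM in replicates 1 to 4, a mean of 25.3 ± 1.17 TPM (SD, n = 4). Its range overlapped that of Slamf6, and the libraries did not rank alike: replicate 4 was the highest for Cd84 and the lowest for Slamf6.

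Slamf7 (ENSMUSG00000038179.13, chromosome 1, 171632403 to 171653035, minus strand) encodes CRACC, a receptor best known on natural killer cells and plasma cells, which is known to signal through the adaptor EAT-2 and not SAP. It had 10.2, 8.33, 9.83 and 9.23 TPM in replicates 1 to 4, with an SD of 0.801 TPM (n = 4), from 749, 564, 848 and 567 read pairs. Its highest library stood under the lowest library of every other detected member. Of 5 plasma cell markers, Irf4, Xbp1 and Sdc1 were detected, at means of 1452, 78.7 and 2.88 TPM. Of these, Irf4 is also induced in activated T cells. Prdm1 was not detected, at a mean of 0.0669 TPM, and Jchain had no count.

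Cd244a (ENSMUSG00000004709.14, chromosome 1, 171559193 to 171609746, plus strand) encodes 2B4, the second receptor for CD48. Only 23, 16, 29 and 7 read pairs were counted in replicates 1 to 4, or 0.293, 0.222, 0.315 and 0.107 TPM. The exact Poisson 95% intervals, which cover counting error only, were 0.186 to 0.439, 0.127 to 0.360, 0.211 to 0.453 and 0.0430 to 0.220 TPM. Replicate 4 was the lowest, and its interval overlapped those of replicates 1, 2 and 3, for replicate 3 only narrowly. Such overlap is not a test of whether the libraries differ. Of 7 natural killer cell markers none was detected, and Klra8 and Klri2 had no count. Their sums were 1.24, 1.94, 0.447 and 1.69 TPM in replicates 1 to 4, lowest in replicate 3. The 7 B cell markers summed to 9.80, 6.96, 7.46 and 2.89 TPM, lowest in replicate 4, with none detected in every library and none without counts. The 7 macrophage and monocyte markers summed to 4.08, 1.94, 6.29 and 4.80 TPM, lowest in replicate 2. Of these, Cd68 alone was detected, and Cd14 and Fcgr1 had no count. The part of such cells in the Cd244a counts was not tested.

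**Figure D1:**
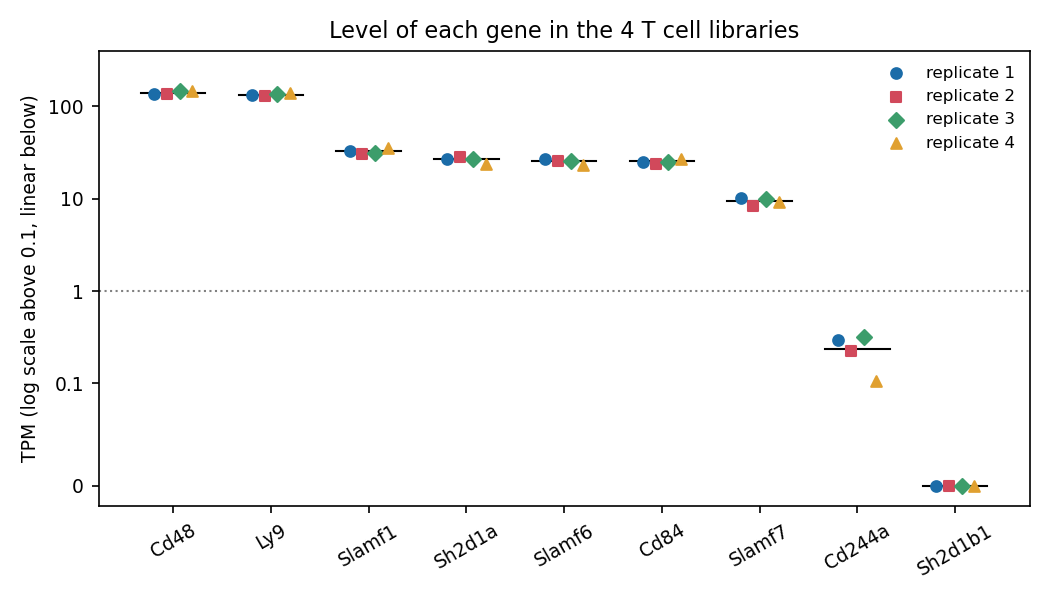
Level of each of the 9 genes in TPM (vertical axis, logarithmic above 0.1 and linear below) in the 4 libraries, 1 symbol per library, with a black line at the mean and a dotted line at the detection floor of 1 TPM. Cd48 and Ly9 lie highest, 4 genes lie between 23.2 and 35.2 TPM, Slamf7 lies at 8.33 to 10.2 TPM, Cd244a under 1 TPM and Sh2d1b1 at 0.

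The 9 genes were set in order of mean TPM and each of the 8 neighbouring pairs was compared within libraries on the log2(TPM + 0.5) scale. The ordering used the same libraries and so fixed the direction of each mean difference. The sizes are therefore a description, with no p-value, and 4 libraries could not reach 0.05 in an exact permutation test. In 6 of the 8 pairs the upper gene was higher in 4 of 4 libraries, and in 5 pairs the ranges did not overlap. Cd48 exceeded Ly9 by 0.08 ± 0.0264 (SD, n = 4) on that scale. Ly9 exceeded Slamf1 by 2.03 ± 0.0533 (SD, n = 4). With all exons as the length, this step separates the upper tier from the middle one. Slamf1 exceeded Sh2d1a by 0.29 ± 0.188 (SD, n = 4), and their ranges did not overlap. Sh2d1a and Slamf6 differed by 0.06 ± 0.0687 (SD, n = 4), with Sh2d1a higher in 3 of 4 libraries. Slamf6 and Cd84 differed by 0.01 ± 0.148 (SD, n = 4), less than the spread between libraries. The next step, from Cd84 to Slamf7, was 1.39 ± 0.114 (SD, n = 4). Slamf7 exceeded Cd244a by 3.76 ± 0.173 (SD, n = 4), a step whose size depends on the pseudocount because Cd244a is so low. It was 3.07 with log2(TPM + 1) and 4.87 with log2(TPM + 0.1).

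The order of neighbouring genes depends on the length that TPM divides by. The deposited length counts every annotated exon of a gene, and for Sh2d1a it was 5505 bases against 1223 in its longest coding transcript, a ratio of 4.50. The ratio was 2.29 for Slamf1, 1.89 for Slamf6, 1.83 for Cd84, 1.33 for Ly9 and 1.00 for Cd48. With the longest coding transcript as the length, a choice added after the data were seen, Sh2d1a stood at 85.9 ± 6.03 TPM (SD, n = 4), above Slamf1 at 53.3 ± 3.34 TPM (SD, n = 4). Ly9 then stood at 128 ± 4.24 TPM (SD, n = 4), above Cd48 at 102 ± 3.82 TPM (SD, n = 4). The shortest coding transcript put Slamf6 first, at 137 ± 8.88 TPM (SD, n = 4). It then stood above Ly9 at 103 TPM and Cd48 at 88.9 TPM, so the upper and middle tiers did not stay apart. Under each of the 3 lengths Slamf7 was the lowest detected member and Cd244a stayed under 1 TPM. The files do not say which transcripts were made.

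**Figure D2:**
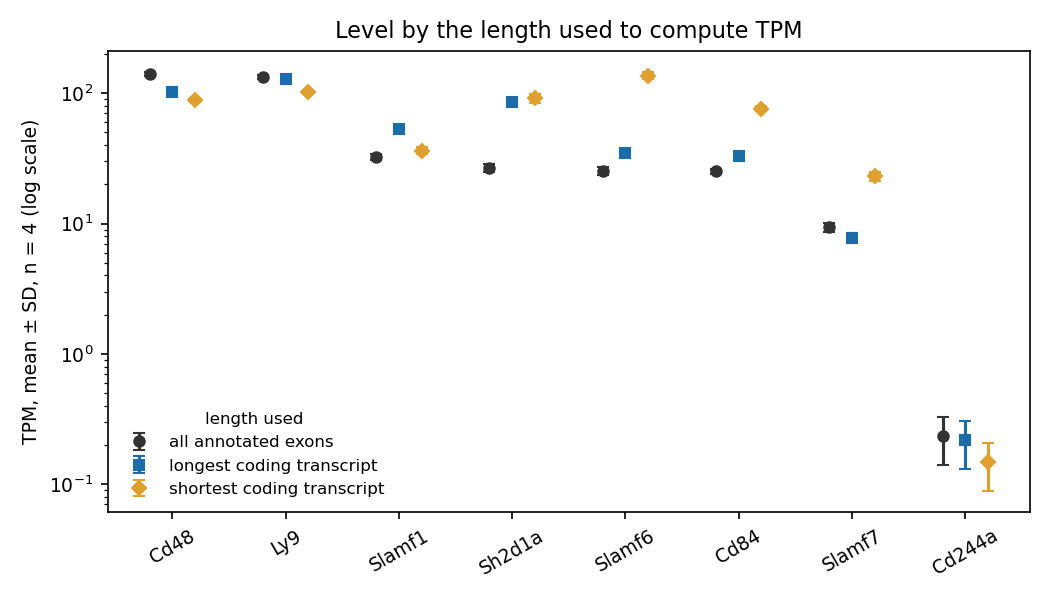
TPM of 8 genes (mean ± SD, n = 4, logarithmic axis) by the length used to compute it, with 1 symbol for all annotated exons, the longest coding transcript and the shortest coding transcript. Sh2d1a moves from 26.6 to 85.9 and 91.4 TPM and Slamf6 from 25.4 to 34.5 and 137 TPM.

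The 2 receptors that bind CD48 stood at opposite ends of the range. Cd2, the T cell receptor for CD48, had 255, 241, 224 and 231 TPM in replicates 1 to 4, a mean of 238 ± 13.4 TPM (SD, n = 4). Its TPM exceeded that of Cd48 in 4 of 4 libraries, by a ratio of 1.69 ± 0.152 (SD, n = 4), or 2.54 ± 0.229 (SD, n = 4) with the longest coding transcript as the length. Cd48 TPM was 466, 618, 461 and 1364 times that of Cd244a in replicates 1 to 4. The value of replicate 4 rests on the 7 read pairs of Cd244a there, and with replicate 4 set aside the ratio lay between 461 and 618.

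The SAP gene Sh2d1a (ENSMUSG00000005696.11, chromosome X, 42502453 to 42529330, plus strand) is the only X-linked member. It had 26.7, 28.5, 27.2 and 24.0 TPM in replicates 1 to 4, a mean of 26.6 ± 1.90 TPM (SD, n = 4), highest in replicate 2 and lowest in replicate 4. Replicates 1 and 2, where Xist was high, overlapped replicates 3 and 4 for Sh2d1a. The same held for Slamf1, Cd84 and Slamf7. Replicates 1 and 2 were both lower than replicates 3 and 4 for Cd48 and Ly9, and both higher for Slamf6. These 3 of the 7 detected members stand beside 37.6% of all detected genes whose values did not overlap between the same pairs, so the share is near the background.

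The 6 receptor genes printed with the motif, Slamf7 included, had a summed level 8.51, 7.67, 8.35 and 9.76 times that of Sh2d1a in replicates 1 to 4. Replicate 4 was the highest, and there Sh2d1a was at its lowest. With the longest coding transcript as the length, the ratio was 3.00 ± 0.307 (SD, n = 4) in place of 8.57 ± 0.871 (SD, n = 4), so its size depends on the length used. These are ratios of RNA, not of protein.

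EAT-2, the second SAP-like adaptor, is encoded in mice by the closely related genes Sh2d1b1 and Sh2d1b2, and is best known in natural killer and myeloid cells. Sh2d1b1 (ENSMUSG00000102418.1, chromosome 1, 170277320 to 170286769, plus strand) had 0 read pairs in 4 of 4 libraries, which allows up to 0.0625 to 0.0878 TPM, as 3 counts of each total. Sh2d1b2 (chromosome 1, 170232749 to 170253608) also had 0 in every library. A pair of similar genes can lose reads that map to both, so their sequences were compared. Their coding sequences of 396 bases differed at 37 bases, an identity of 90.7%, and the first 154 bases were the same. Over the whole transcript, 178 of 2445 windows of 100 bases in Sh2d1b1, or 7.28%, also occurred in Sh2d1b2, and the other windows did not. Coding bases 181 to 360, where 34 of the differences lie, are printed from the GENCODE M21 transcripts with differing bases in capitals.
Sh2d1b1: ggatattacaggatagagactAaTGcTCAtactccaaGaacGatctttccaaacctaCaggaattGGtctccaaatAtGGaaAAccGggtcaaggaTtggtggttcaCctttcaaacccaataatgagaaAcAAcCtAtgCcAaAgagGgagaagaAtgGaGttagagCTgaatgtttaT
Sh2d1b2: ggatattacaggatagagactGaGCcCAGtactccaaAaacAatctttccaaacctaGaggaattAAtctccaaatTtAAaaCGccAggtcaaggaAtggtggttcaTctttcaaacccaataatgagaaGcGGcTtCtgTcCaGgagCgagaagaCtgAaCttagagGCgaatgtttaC

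The search covered the transcript with the longest coding sequence of each gene, and exons outside it were not searched. That transcript had 1604 bases for Slamf7, against 4577 counted exonic bases, and 1223 against 5505 for Sh2d1a. Within these transcripts, no other member shared a 100-base window with another gene on the same strand. On the opposite strand, 42.3% of the windows of the Sh2d1a transcript lay in Tenm1, which had 0, 1, 0 and 0 read pairs. For Slamf7 the share was 13.7%, in Gm37787, which had no count. The counting used strand, so reads of these partners were kept apart.

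The 7 receptor genes lay together within 394 kb of chromosome 1 (171559193 to 171953170), and the levels of neighbours in this cluster spanned the whole range. Ly9, among the highest, lies inside the span of Cd244a, the lowest receptor, on the opposite strand. Of 12 other genes annotated inside the cluster, 6 had no count and 2 were detected. Gm10521, annotated as protein-coding, had 3.88, 2.68, 2.23 and 3.10 TPM, and the pseudogene Tma7-ps had 2.86, 5.55, 1.09 and 3.44 TPM from 9, 16, 4 and 9 read pairs. Gm37065, which runs antisense across the start of Slamf6, had 0.762, 1.76, 1.33 and 0.387 TPM. Gm37981, Gm37010 and A630035G10Rik were counted too, at means of 0.231, 0.250 and 0.143 TPM, and the 6 without counts were Gm37787, Mir7683, Gm37693, Gm19030, Gm26412 and Gm22950. The other SLAM family genes, which lie beyond the cluster on chromosome 1, were low: Slamf8 had no count, and Slamf9 had 8, 1, 3 and 1 read pairs.

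**Figure D3:**
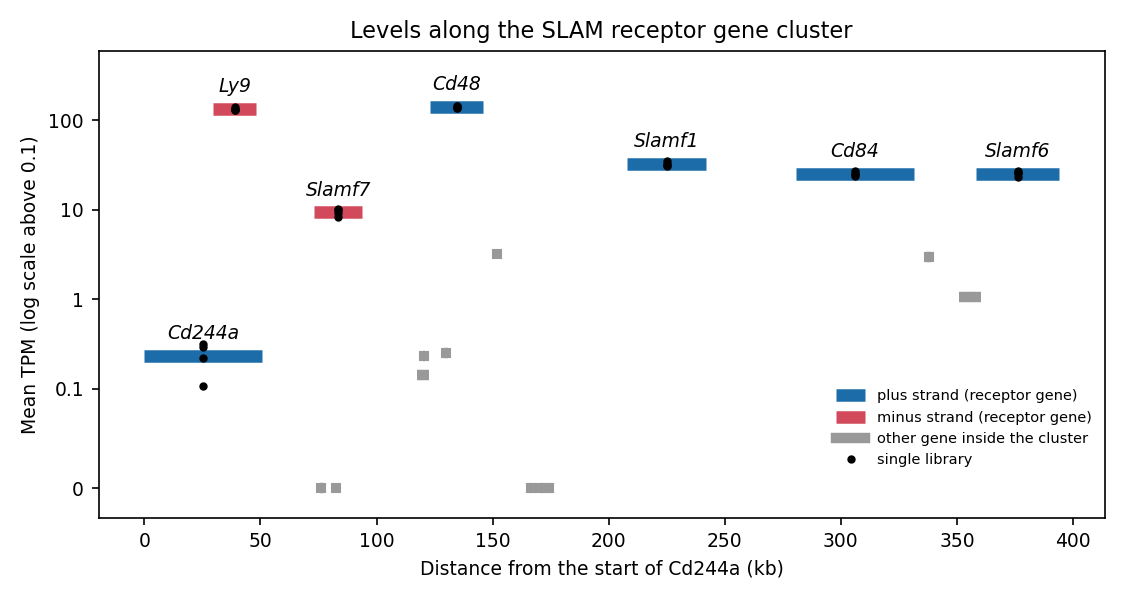
Mean TPM (vertical axis, logarithmic above 0.1) of the 7 receptor genes against distance from the start of Cd244a in kb, as bars of the genes' extent coloured by strand, with black points for single libraries and grey bars and squares for the 12 other genes. Ly9 at 134 TPM sits inside the span of Cd244a at 0.234 TPM.

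The 18 listed genes of SLAM receptor signalling were all detected, with a summed level of 3203 to 3348 TPM and a median of 76.2 TPM. In every library, 15 of the 18 lay above Sh2d1a. Ptpn6, the gene for the phosphatase SHP-1, had a mean of 659 ± 19.5 TPM (SD, n = 4). Lck, the kinase of the T cell receptor, had 622 ± 11.4 TPM (SD, n = 4). Csk, which holds Lck and Fyn in check, had 556 ± 13.6 TPM (SD, n = 4). Nfkb1, a subunit of NF-kappa B downstream of SAP and Fyn, had 330 ± 13.4 TPM (SD, n = 4). Vav1, an exchange factor for small GTPases, had 187 ± 2.76 TPM (SD, n = 4). Fyn, the kinase that SAP recruits, had 239, 239, 243 and 245 TPM in replicates 1 to 4. The TPM of Fyn was 9.12 ± 0.772 times (SD, n = 4) that of Sh2d1a, or 2.48 ± 0.210 times with the longest coding transcript as the length. The lowest gene of the list was Plcg2, a phospholipase of B cells and myeloid cells, at 3.78, 3.63, 2.44 and 4.28 TPM.

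**Figure D4:**
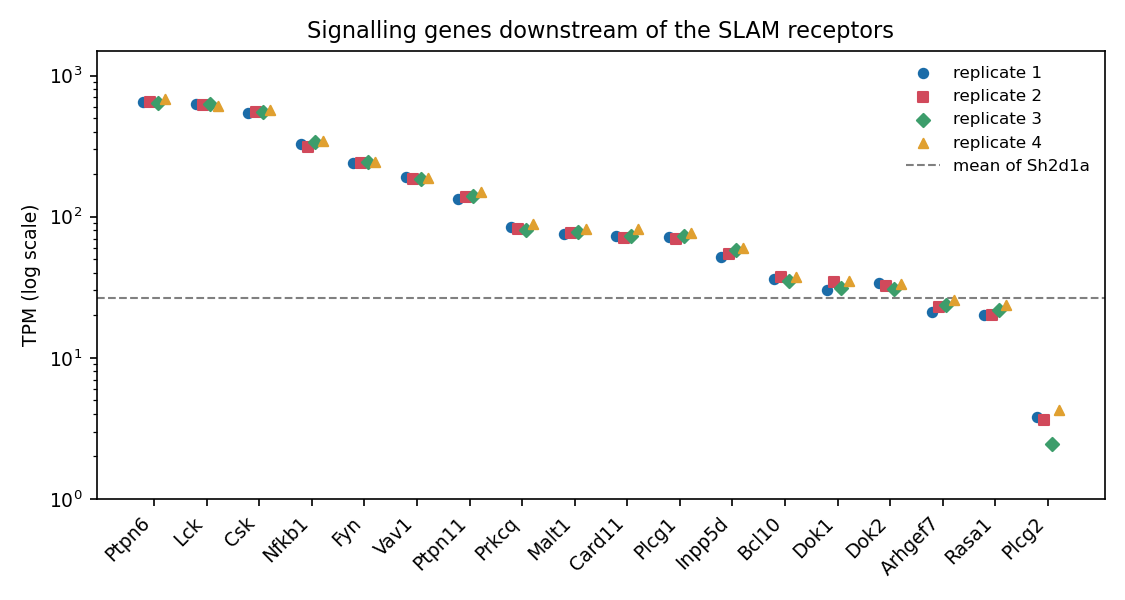
TPM (logarithmic axis) of the 18 signalling genes in the 4 libraries, 1 symbol per library, ordered by mean, with a dashed line at the mean of Sh2d1a. Ptpn6 at 659 TPM is the highest and Plcg2 at 3.54 TPM the lowest.

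Of 8 genes listed for follicular helper and innate-like T cells, the settings in which SAP is best studied, 5 were detected. Pdcd1, which encodes the inhibitory receptor PD-1, had 223, 229, 212 and 201 TPM in replicates 1 to 4. Icos, a costimulatory receptor, had 99.9 ± 4.12 TPM (SD, n = 4). Bcl6, the transcription factor of follicular helper cells, had 6.97, 6.20, 6.40 and 7.98 TPM. Cxcr5, the chemokine receptor that leads these cells to B cell follicles, had 5.27, 4.10, 4.25 and 4.09 TPM. Maf, a transcription factor of follicular helper cells, and Il21, the cytokine with which they help B cells, were not detected, at means of 0.252 ± 0.0686 and 0.0693 ± 0.0507 TPM (SD, n = 4). Zbtb16, the factor that defines natural killer T cells, had no count in replicates 2 and 3 and 0.0822 and 0.0141 TPM in replicates 1 and 4.

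With a single group, the replicates allow 1 test across genes: whether a gene varied more between libraries than genes of like abundance. In edgeR's quasi-likelihood fit, 28 of 12285 tested genes passed an adjusted p of 0.05, or 0.228%. None of the 7 tested members passed, and 0 had an unadjusted p under 0.05. The dispersion outliers of DESeq2 were 68 genes, or 0.554%, and included 0 members. Cd244a and Sh2d1b1 had too few counts to be tested. None of the 24 tested genes of the signalling list and the follicular and innate-like list passed in edgeR. Il21 and Zbtb16 had too few counts to be tested.

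Among the tested members, the spread ran from Ly9, with an SD of 0.0229 on the log2 CPM scale (CPM, counts scaled to library size), to Sh2d1a, with an SD of 0.128. The median SD of these 7 genes was 0.0672, against 0.0949 over the 11366 tested genes whose mean TPM was at least 1. The ratio of a gene's dispersion to that of genes of like abundance was 2.40 for Slamf6 (edgeR adjusted p = 0.972) and 2.16 for Sh2d1a (edgeR adjusted p = 0.975). It was 0.711 for Slamf1, 0.851 for Slamf7, 0.274 for Cd84, 0.184 for Cd48 and 0.136 for Ly9. Counting error alone gave a coefficient of variation of 1.51% for Slamf6, where the libraries showed 6.46%. For Cd244a it was 23.1% and the libraries showed 40.0%.

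Replicate 4 was the highest library for 4 of the 7 detected members, Cd48, Ly9, Slamf1 and Cd84, beside 40% of all detected genes. It was the lowest for Slamf6 and Sh2d1a, beside 20.7% of all detected genes. Among the 18 signalling genes it was the highest for 14. On the log2(TPM + 0.5) scale its deviation from the mean of the 4 libraries was 0.12 for Slamf1, 0.09 for Cd84, 0.06 for Ly9 and 0.05 for Cd48. For Slamf6 and Sh2d1a it was -0.13 and -0.14. It was also the smallest library by read pairs, and the part of depth in these deviations was not tested.

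**Figure D5:**
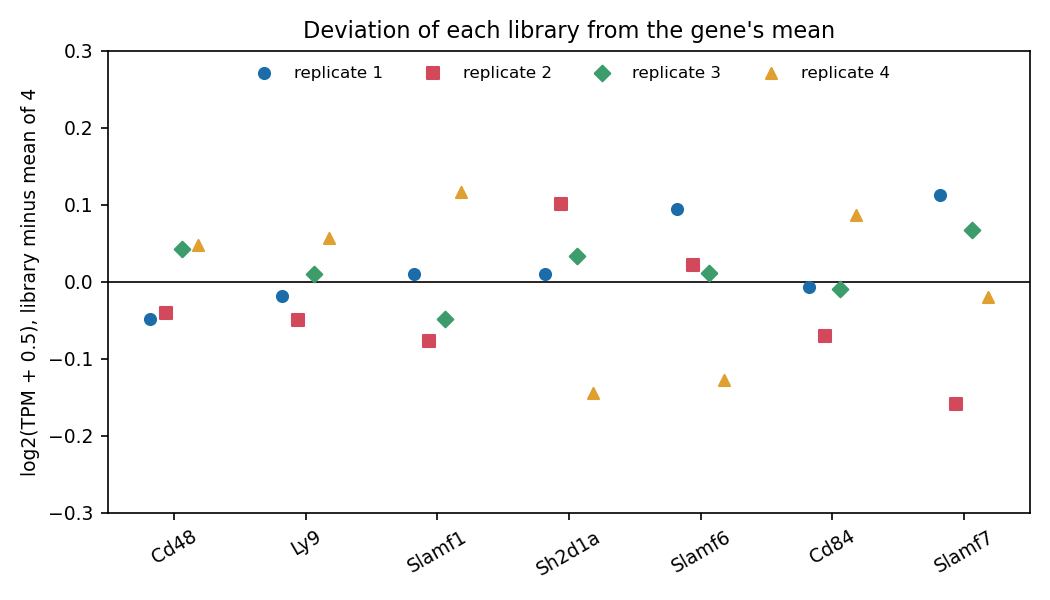
Deviation of each library from the gene's mean over the 4 libraries (vertical axis, log2(TPM + 0.5)) for the 7 detected members, 1 symbol per library. Replicate 4 lies highest for Slamf1, Cd84, Ly9 and Cd48 and lowest for Slamf6 and Sh2d1a, between -0.14 and 0.12.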

How the data were processed

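The 4 RNA libraries form 1 group. Raw counts, in read pairs for each gene, are what the authors deposited. Per the file headers, featureCounts 1.4.6-p4 counted them on GENCODE M13 exons with strand setting 2 and both mates required, from STAR alignments (version not given in the sources used here). Per the labels the build is mm10. Total RNA-seq is the assay named in the labels, yet a linked protocol is named for polyA+ RNA, and which applies was not settled. The exonic length of each gene, also deposited, was used for TPM. Symbols came from GENCODE M21, in which 50376 of 50600 identifiers matched. The coordinates of the 9 genes were equal in both releases.

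TPM was computed in Python 3.11.15, and sequences were read with coding positions from GENCODE M21. The spread test ran in edgeR 4.0.16 (R 4.3.3) with filterByExpr, TMM scaling and an intercept-only quasi-likelihood fit over all genes, the residual dispersion (3 degrees of freedom) against the trended prior, and Benjamini-Hochberg adjustment. Size factors and dispersion outliers of DESeq2 1.42.0 served as alternatives. A count of 0 allows 3 counts of the total. The genes and lists were chosen with earlier results of these data known. Text names all 9 genes, their close relatives and Cd2, the genes with counts inside the cluster, the 6 highest signalling genes, the 4 highest follicular genes, and for each detected member the 2 protein-coding genes of most similar level. Plcg2, Maf, Il21, Zbtb16, Xist, Tenm1 and the cell markers with values were named after their values were seen. Alternatives were other scalings, filters, floors, pseudocounts, TPM denominators and gene lengths, and each replicate left out.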

Additional observations from a re-analysis of the deposited data

Results flagged for a closer look

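Of 81 values examined over the 4 libraries, 2 had 1 library apart from the other 3 by Dixon's criterion at the 95% level, which chance alone meets in about 1 group in 20. Neither gene is a SLAM family member. Cxcr5 was high in replicate 1, at 5.27 TPM against 4.10, 4.25 and 4.09 TPM. A630035G10Rik, a noncoding transcript beside Cd48 on the opposite strand, was high in replicate 4, at 0.523 TPM against 0.0242, 0.0264 and 0 TPM. Its counts were 1, 1, 0 and 18 read pairs. Cd48 itself was at 146 TPM in replicate 4 and 145 TPM in replicate 3.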

How the results depend on the processing

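The comparisons were answered by 4 counts: members passing the spread test, listed partners passing it, members detected, and ordered pairs of neighbours. A pair counted as ordered where the upper gene of the first order was higher in every library used. These counts were recomputed 49 times in all and stayed within 1.5 times of their first values. The spread counts were 0 in every setting. Only 0.112% to 0.681% of all tested genes passed in the alternatives, so these counts had little room to move. The count of ordered pairs ran from 5 to 7, and it can hold while single pairs turn, as given below. The members detected were 7 at floors of 0.5, 1 and 5 TPM. The number of genes passing the spread test over the whole table did move: it was 28 with the filter on low counts, 142 of 20867 without it, 15 without robust estimation of the prior and 14 without replicate 3, and no member was among them. Without the filter, Slamf6 had an unadjusted p of 0.0442 in edgeR (adjusted p = 0.818, and 0.818 to 0.997 over 9 alternatives).

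Single steps of the order turned. Slamf6 minus Cd84 was -0.0125 with 200 bases taken off each length, and ranged from -0.0271 to 0.0783 when replicates were left out in turn. It was negative without replicate 1, 2 or 3. Cd48 minus Ly9 was -0.33 with the longest and -0.21 with the shortest coding transcript as the length. Slamf1 minus Sh2d1a was -0.68 and -1.32, and Sh2d1a minus Slamf6 was -0.58 with the shortest. With 200 bases off each length, genes under 300 bases took 50.1% to 55.2% of the length-corrected reads, and Cd48 fell to 73.1 TPM. No paired comparison of conditions was possible because the libraries form a single group. With 200 bases off, Slamf7 minus Cd244a was 2.96, and it was 5.18 with the shortest coding transcript. Depth limits what a count of 0 can show. For Cd244a and Slamf9 the spread between libraries exceeded counting error, and the part of depth in that spread was not tested.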

Other observations

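The protein-coding genes closest in level to each detected member over the 4 libraries were found by the root mean square difference in log2(TPM + 0.5). For Cd48 they were Fbxl14 (0.0102) and Mob3a (0.0127). For Ly9 they were Pfkp (0.0135) and Cand1 (0.0266). For Slamf1 they were Srek1 (0.00972) and Mms19 (0.0206), and for Cd84 they were Slc39a9 (0.0136) and Rbm12 (0.0203). Sh2d1a was closest to Rnaseh2b (0.0249) and Trappc2l (0.0264), and Slamf6 to Bola3 (0.0200) and Ubxn8 (0.0366). Slamf7 was closest to Hcfc2 (0.0278) and Calcrl (0.0386). Within a difference of 0.1 there were 205 genes for Slamf1 and 32 for Slamf7, so closeness over 4 libraries picks out no small set.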
